A study of Mus musculus with 28 samples.

Results

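The islands described here are 153 regions of the mouse autosomes that carried an H3K9me2 domain in all 4 sorted cell populations of the study while the whole called region stayed narrow. They were chosen by measured values, the domain lists themselves. Overlapping domains of the 4 lists on chromosomes 1 to 19 were joined into runs, gaps under 1 kb included, and a run counted as an island when it was at most 75 kb wide and held at least 5 kb that lay in a domain of every list. The union of the lists formed 4811 runs, of which 2625 were narrow enough, and 153 of these narrow runs (5.83%) met the second condition. The islands add up to 7.78 Mb, or 0.316% of the autosomes and 0.520% of all bases in runs. Their presence in all 4 populations and their small width are therefore fixed by the choice and are not results.

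H3K9me2 was profiled with the antibody ab1220 by ULI-NChIP, which immunoprecipitates unfixed, nuclease-cut chromatin from few cells. All cells came from 1 clone of a BL6/129 hybrid mouse embryonic stem cell (mESC) line with the genotype EHMT2-dTAG-mcherry MERV-GFP, in which the endogenous EHMT2 protein carries a degron tag in treated and control cells alike, and were grown on feeders with serum and LIF. The cells were kept for 72 h in DMSO (control) or in dTAG-13, which degrades the tagged protein, and were sorted by the GFP reporter into mESCs without GFP and 2-cell-like cells (2CLCs) with GFP. This gave the groups mESC DMSO, mESC dTAG, 2CLC DMSO and 2CLC dTAG, each with 3 immunoprecipitation and 3 input libraries from separate experiments. The retinoid TTNBP was added in 2 of the replicates according to the labels and, according to the methods, to the sorted cultures in general, so its presence in each library is not known. One domain list per group was used here, with positions only. No list holds values per replicate, the depth behind the calls is unknown, and no spread between replicates and no test between groups can be given. A domain says where the ratio of immunoprecipitation to input was high relative to other bins, by percentiles, and is not a level of the mark. The lists hold no expression values, so the labelled cell states could not be checked against marker genes.

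H3K9me2 is the dimethylated form of lysine 9 on histone H3. EHMT2 (G9a) and its partner EHMT1 (GLP) write much of it in euchromatin, where it forms broad blanket-like domains over silent genes and repeats, while other enzymes such as SETDB1, recruited by KRAB zinc finger proteins and TRIM28, methylate the same lysine at transposable elements. LINE-1 elements are transposons that spread by copying their RNA into DNA. A complete element carries a second open reading frame that encodes a reverse transcriptase, and young mouse families still have many such copies.

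Because the islands were found by position alone, the sequence they hold was examined first. The reference genome (GRCm38.p6, with the coordinates of mm10, used throughout) was searched for 50-base words, on either strand, that occur in many islands. The word found in most islands was present in 118 of the 153. It is part of the reverse transcriptase frame of LINE-1, an identification made from knowledge of that element, since no table of annotated repeats was used here. The word was chosen after its counts had been seen, so its frequency in the islands is a description.

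Some of the 35 islands without the LINE-1 word shared another 50-base word. A second word, the one with the fewest autosomal copies (299) among those held by at least 7 of these 35 islands, was present in 10 islands, 7 of which lack the LINE-1 word, and all 10 of its copies in islands lay in the common part. It is shown in capitals, with 50 bases on each side to show how far the likeness runs, in the 2 islands with the widest common part among these 7, and the 150 bases of both windows were identical. The repeat family it belongs to, LINE-1 or another, was not determined.
Hmces island, chr6:87976357-87976506, minus strand: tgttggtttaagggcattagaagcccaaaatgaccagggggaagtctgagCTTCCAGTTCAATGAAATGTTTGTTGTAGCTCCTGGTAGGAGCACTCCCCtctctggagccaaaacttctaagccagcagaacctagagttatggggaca
Nat8f4 island, chr6:85871958-85872107, plus strand: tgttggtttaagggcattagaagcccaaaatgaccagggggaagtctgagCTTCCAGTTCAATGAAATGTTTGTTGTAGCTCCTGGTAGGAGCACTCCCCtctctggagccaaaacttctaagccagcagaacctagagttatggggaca

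Copies of the LINE-1 word lay mostly in the part of each island that all 4 groups shared. The 118 islands held 136 copies, with 1 copy in 103 islands, 2 copies in 12 and 3 copies in 3. Of the 136 copies, 130 (95.6%) fell in the common part, which makes up 45.6% of the island bases. The density was 36.6 copies per Mb in the common part and 1.42 per Mb in the remainder of the islands. The copies were thus dense in the core of an island, and the flanks that only some groups called had few.

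The same word was less frequent in other narrow runs. It occurred in 586 of all 2625 narrow runs (22.3%), and in 468 of the 2472 narrow runs that are not islands (18.9%), against 77.1% of the islands. Wide runs (over 75 kb) with at least 5 kb common to the 4 sets held it in 89.1% of cases, and those of them up to 150 kb wide, the nearest in width to the islands, in 165 of 234 (70.5%). Per Mb, the islands held 17.5 copies, other narrow runs 5.39, wide common runs 8.48, other wide runs 3.37 and the autosomes outside any run 0.430. Runs are not replicates and the word was picked from the islands, so these differences carry no test. The difference between islands and other narrow runs was present at each width. In runs up to 35 kb the word occurred in 32 of 39 islands and in 248 of 1372 other narrow runs. In runs of over 35 and up to 55 kb it occurred in 35 of 50 islands and 132 of 709 other narrow runs, and in runs over 55 kb in 51 of 64 islands and 88 of 391 other narrow runs.

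**Figure D1:**
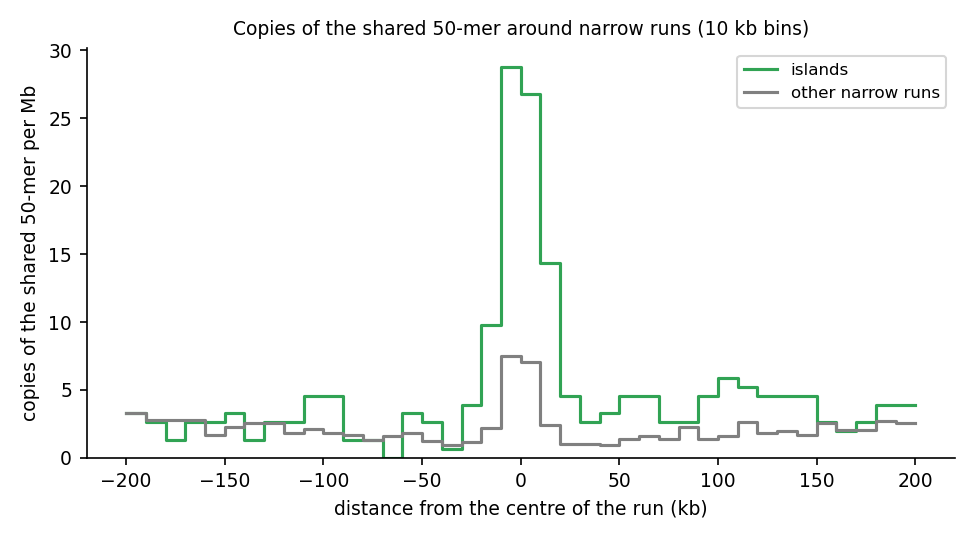
Copies of the shared LINE-1 word per Mb (vertical axis) by distance from the centre of the run in kb (horizontal axis, 10 kb bins), for the 153 islands (green) and the 2472 other narrow runs (grey). The 2 central bins of the islands reach 28.8 and 26.8 copies per Mb, those of the other narrow runs 7.48 and 7.04.

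The share rose with the number of groups that called a narrow run. It was 11.1% for the 1137 runs called in 1 set, 16.2% for the 968 called in 2 sets, 50.4% for the 367 called in 3 sets and 77.1% for the islands. Among runs that missed a single set, the 200 runs without a domain in 2CLC DMSO held it in 63.0% of cases and the 144 without a domain in mESC DMSO in 36.1%. The 20 runs without a domain in mESC dTAG held the word in 30% of cases, and 1 of the 3 runs without a domain in 2CLC dTAG held it. Runs called in both depleted populations and in neither control, the most frequent pattern with 807 runs, held it in 14.6%. Runs called in more sets were also wider, with a median of 25 kb for 1 set and 55 kb for the islands, and the part of width in this order was not tested.

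**Figure D2:**
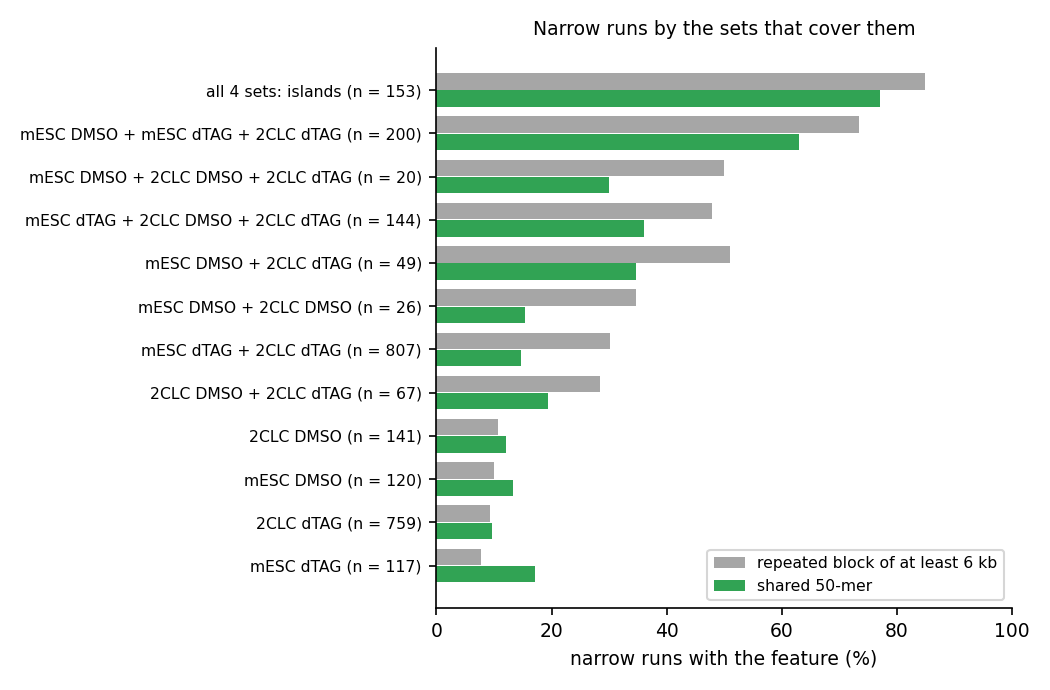
Share of narrow runs (horizontal axis, %) that hold the shared LINE-1 word (green) or a repeated block of at least 6 kb (grey), by the domain sets that cover the run (vertical axis, with the number of runs). Patterns with fewer than 20 runs are left out. The islands, in the top row, have the longest bars, at 77.1% and 85.0%.

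A measure defined without the chosen word gave a similar picture, though it marked many of the same islands. Every 50-base word that occurs more than once on its chromosome and strand was marked, and the longest stretch of such words, bridging up to 200 bases, was measured in each run. This repeated block had a median length of 6544 bases in the islands, with quartiles of 6237 and 7100 bases, and of 2880 bases in other narrow runs. A block of at least 6 kb, about the length of a complete LINE-1 element and a limit set after the lengths had been seen, was present in 130 islands (85.0%), beside 29.5% of all narrow runs and 26.1% of the narrow runs that are not islands. In 127 of the 130 islands the middle of the block lay in the common part. Wide runs common to the 4 sets held such a block in 89.2% of cases, and those of 75 to 150 kb in 75.2%.

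The LINE-1 copies in the islands often kept a long open frame, by a limit also set after the values had been seen. The frame around the word was open, from stop codon to stop codon, for at least 3500 bases in 72 of 136 copies in islands (52.9%), in 160 of 500 copies in other narrow runs (32.0%), in 24.1% of the 10824 copies in wide common runs and in 42 of 415 copies outside any run (10.1%). The most frequent length over all copies was 3900 bases, found 2504 times on the autosomes and 64 times in islands. Most copies of the word do not lie in islands: of 12279 on the autosomes, 88.2% were in wide common runs, 1.11% in islands and 3.38% outside any run. At the level of single copies, 79.8% were covered by all 4 sets and 3.38% by none, and for copies with an open frame of at least 3500 bases these shares were 83.5% and 1.41%. Nearly identical copies share reads, which the study placed at 1 of several equally good sites, so the calls at different copies are not independent of each other. The part of this read placement in the islands was not tested.

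The second word, printed above for the Hmces and Nat8f4 islands, occurred in 2.47% of other narrow runs and 10.1% of wide common runs, beside 6.54% of the islands. The 28 islands with neither word had a longest repeated block of 5747 bases at the median, and 13 of them held a block of at least 6 kb. At the other end, the island over Gm853 had no block longer than 343 bases, and the island over Idi1, which encodes an isomerase of the cholesterol pathway, none longer than 1900 bases. Islands with and without the LINE-1 word had the same median width (55 kb) and common part (20 kb), and a protein-coding gene started in 28.8% and 25.7% of them.

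A part common to the 4 groups is required by the rule, and in most islands the groups differed in extent around it. The islands were 15 to 75 kb wide with a median of 55 kb, and their common part was 10 to 55 kb with a median of 20 kb. Inside an island the domains of 2CLC dTAG had a median of 35 kb and those of each other group a median of 30 kb. The mESC DMSO domains covered 70.7% of the island bases and the 2CLC DMSO domains 69.5%. The mESC dTAG domains covered 66.3% and the 2CLC dTAG domains 72.9%. No group accounted for the width of most islands, since each was the widest or tied in 49 to 63 of them. The common part was a single piece in 150 islands.

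**Figure D3:**
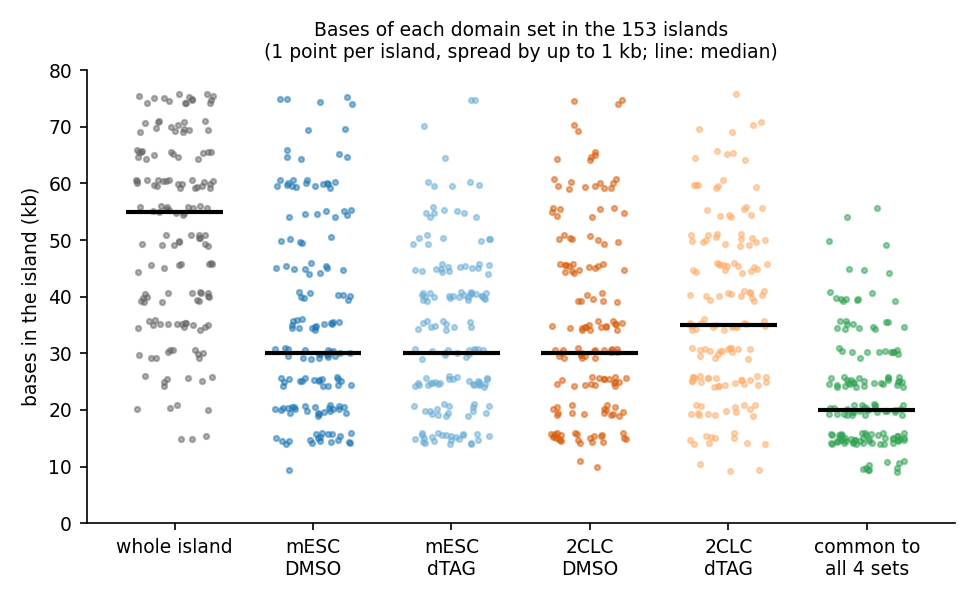
Bases in kb (vertical axis) that each of the 153 islands holds in total, in each of the 4 domain sets and in their common part, with 1 point per island and a black line at the median. The medians of the 4 sets lie between 30 and 35 kb, above the 20 kb of the common part and below the 55 kb of the whole island.

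Constant position did not mean constant extent. Only 6 islands had the same bases in all 4 sets: those over Gm853 and Wdr7 (15 kb each), near Orc5 (20 kb), over 4932438A13Rik (25 kb), near Wasf1 (30 kb) and over Idi1 (55 kb). All 4 sets ended on the same 5 kb bin at the left edge of 18 islands and at the right edge of 27. The island over Raet1e, which encodes a ligand of the NKG2D receptor, is an example of unequal edges, with its whole 75 kb called in both DMSO groups, 60 kb in mESC dTAG and 50 kb in 2CLC dTAG. At the prion protein gene Prnp the order was turned around. In DMSO its domains measured 25 kb in mESCs and 55 kb in 2CLCs, and under dTAG they measured 40 and 60 kb. These widths come from 1 list per group and cannot be set against replicate error.

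The limits of the rule left the islands on one side of a clear gap in one measure and not in the other. Every narrow run with a domain in all 4 sets had at least 10 kb in common, above the limit of 5 kb, and 10 islands were at this smallest value, among them those over Ccdc34, Ppfibp1 and Phkb. The narrow runs that missed the rule had no base in all 4 sets, 367 of them being called in exactly 3. The width limit cut through a continuous range, with 15 islands at 75 kb, such as those near Pard3b, Nr5a2 and Nkx2-4, and 22 runs common to the 4 sets at the next width of 80 kb, such as chr1:106070068-106150067 with 15 kb in common. The smallest gap between runs was 5.00 kb, so that the merging of gaps under 1 kb joined none.

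Most islands touched the body of a protein-coding gene, and most held no start of one. Of the 153 islands, 118 (77.1%) touched the body of a protein-coding gene of the GENCODE M21 annotation, and 60 (39.2%) lay wholly inside one. A gene started in 43 islands (28.1%), close to the share over all narrow runs (28.2%), and 75 islands held part of a gene and no start. The remaining 35 islands touched no protein-coding gene and lay 1.04 to 524 kb from the nearest, with a median of 30.8 kb. Other narrow runs touched a gene body in 69.1% of cases and lay wholly inside protein-coding genes in 32.0%, against 39.9% of the islands (61, of which 1 needed more than 1 gene).

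The genes that hold a whole island were long. There were 59 such genes with a median length of 259 kb, beside 17.6 kb over all autosomal protein-coding genes, and 54 of them exceeded 100 kb. Only a gene longer than an island can hold it, so part of this difference follows from the definition. The length of genes that hold other narrow runs was not measured, so long genes are not shown to be particular to the islands. Of the 59 genes, 58 held exactly 1 island. The longest of these 58 was Anks1b, which encodes an ankyrin repeat protein of the synapse and is 1099.8 kb long.

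**Figure D4:**
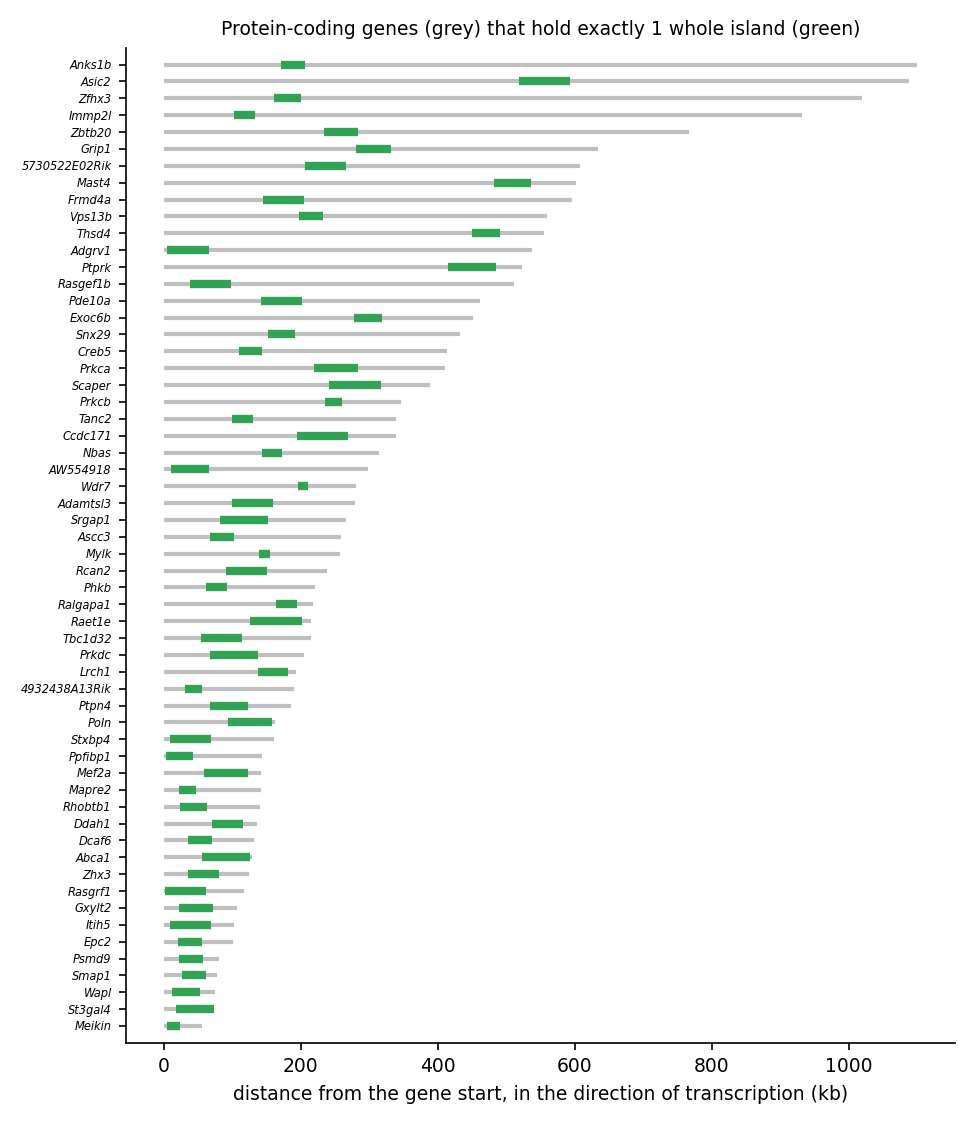
The 58 protein-coding genes (vertical axis) that hold exactly 1 whole island, drawn as grey lines from their start in the direction of transcription (horizontal axis, kb), with the islands in green at their true width. The islands sit at varied distances inside the genes, which range in length from Meikin (56.1 kb) to Anks1b (1099.8 kb).

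The genes that hold an island have varied roles, of which a few are given as examples. Prkca and Prkcb, which encode conventional protein kinase C isoforms, held islands of 65 and 25 kb. Asic2, an acid-sensing ion channel, held an island of 75 kb, and Pde10a, a cyclic nucleotide phosphodiesterase, held 1 of 60 kb. Abca1, the cholesterol efflux transporter, held 70 kb, and Mylk, the myosin light chain kinase, held 15 kb, the smallest width found. Meikin, a factor of the meiotic kinetochore, was the shortest gene that held an island, at 56.1 kb with an island of 20 kb. Inside genes the reading frame of the LINE-1 word ran opposite to transcription for 46 of 67 copies in islands (68.7%), and for 63.1% of all 2493 autosomal copies inside genes.

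Over whole islands, gene starts lay at a share close to that of all autosomal bases. There were 73 protein-coding starts in them, 0.351% of the 20807 on the autosomes, while the islands make up 0.316% of autosomal bases. This amounts to 9.38 starts per Mb, beside 8.45 per Mb of the autosomes, 10.4 per Mb of other narrow runs and 4.04 per Mb of wide common runs. By 5 kb bins, 4.18% of the bins in islands and 3.90% of autosomal bins held a start. Of the 73, only 17 lay in the common part, in 14 islands, though this part makes up 45.6% of the island bases. The other 56 were in bases that at least 1 group did not call. The part shared by all groups was thus poorer in starts than the remainder of the islands. The starts of other annotated genes included 34 processed pseudogenes and 15 lincRNAs.

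The widest common part, 55 kb, was found in the Idi1 island and in an island over odorant receptor genes on chromosome 11. The second of these spans chr11:58664756-58729755 and has domains of 55 kb in mESC DMSO and of 60 kb in each of the other groups. Olfr320, Olfr319 and Olfr318 start in its common part. It lay 85 kb from the next run on the left and 1845 kb from the next on the right. Another odorant receptor island on the same chromosome, at chr11:50984767-51049765, held the starts of Olfr51, Olfr54 and Olfr1375, with that of Olfr54 in the common part of 25 kb.

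Keratin-associated protein genes, which encode hair shaft proteins, started in a pair of neighbouring islands. The first, at chr11:99784702-99859700, held 9 protein-coding starts, the most of any island, among them Krtap4-9, Krtap4-13 and Krtap4-16, and those of Gm11564 and 2300003K06Rik fell in its common part of 30 kb. The mESC domains in it measured 30 kb in DMSO and 40 kb under dTAG, and the 2CLC domains 75 and 55 kb. Repeated words made up 36.6% of this island. The second, 10 kb further on at chr11:99869701-99904700, was 35 kb wide and held Krtap9-1. These genes form a family of similar copies, and their part in the repeated share was not tested.

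Single genes with a start in a common part had varied roles. Cyp2r1, the vitamin D 25-hydroxylase, started in an island of 70 kb with 40 kb in common. Sh3gl3, which encodes endophilin A3, and the predicted gene Gm10577 each started in a common part of 40 kb, Crygn, a crystallin gene, in 1 of 30 kb and Nat8f2, of the Nat8 family of acetyltransferases, in 1 of 35 kb. At the PHD finger gene Phf11a it was 25 kb and at 4930435E12Rik 30 kb. It was wider, 45 kb, at Rprd1a, a regulator of RNA polymerase II, and 25 kb at Usp14, a deubiquitinase of the proteasome.

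CpG content, which in general separates broadly active from tissue-restricted promoters, was counted before the gene starts. RefSeq promoter sequences within 1 kb of the start were found for 55 of the 73 genes. None of the 6 odorant receptor genes was among the 55, so the values hold for the matched genes only. The 250 bases before the start held a median of 10 CG pairs (0 to 48), and at least 10 in 29 genes (52.7%), beside a median of 11 and 52.7% of 19174 autosomal promoters of protein-coding genes. Of the 17 genes that start in a common part, 8 were found, and for these the median was 7.5, with 4 at 10 or more. Among these 8, the promoters with the fewest and the most CG pairs, 0 and 16, are printed with CG in capitals, from RefSeq on GRCm38.p6.
Phf11a, chr14:59297523-59297772, minus strand: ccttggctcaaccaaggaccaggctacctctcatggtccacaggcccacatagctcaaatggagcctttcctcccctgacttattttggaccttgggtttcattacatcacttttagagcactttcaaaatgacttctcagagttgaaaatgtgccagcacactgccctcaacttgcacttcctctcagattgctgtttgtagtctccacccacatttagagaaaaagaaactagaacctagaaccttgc
Cyp2r1, chr7:114562973-114563222, minus strand: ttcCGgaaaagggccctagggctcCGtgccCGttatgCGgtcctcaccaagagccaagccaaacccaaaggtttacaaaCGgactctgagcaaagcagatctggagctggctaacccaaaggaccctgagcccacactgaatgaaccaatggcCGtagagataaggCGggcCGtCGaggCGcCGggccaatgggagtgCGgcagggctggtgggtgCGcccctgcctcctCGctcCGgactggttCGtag

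At most 6 members of any gene list started in an island. Of 1127 autosomal odorant receptor genes, 6 (0.532%) started in an island, as did 3 of 459 zinc finger genes (Zfp618, Zbtb11 and Zfp101, 0.654%), 1 of 55 imprinted genes (Copg2, a coat protein subunit) and 1 of 96 ribosomal protein genes (Rpl24), beside 0.351% of all protein-coding genes. Copg2 started in an island of 55 kb with 20 kb in common, and Rpl24 shared an island of 50 kb with Zbtb11, with 15 kb in common. None of the zinc finger, imprinted and ribosomal protein starts lay in a common part. No member of the other lists started in an island: 89 germline and meiosis genes, 51 2-cell genes, 328 vomeronasal receptors, 75 histones, 39 Hox genes, 66 protocadherins, 151 developmental transcription factors, 86 neurotransmitter receptors, 24 pluripotency genes and 31 genes of the H3K9 methylation machinery. At a share of 0.351%, lists of this size hold less than 1 start on average, apart from the odorant, vomeronasal and zinc finger lists. A count of 0 thus carries little information. The lists were made by gene symbol and are not complete. Tcf21, a transcription factor gene on none of them, started in an island of 40 kb with 20 kb in common.

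The islands were only partly isolated. The distance to the nearest other run had a median of 35 kb, with quartiles of 10 and 95 kb and a maximum of 1025 kb. Another run lay within 50 kb of 94 islands, and 59 (38.6%) had none that close, beside 52.4% of the other narrow runs, whose median distance was 60 kb. The nearest run was another narrow run for 87 islands, a wide common run for 38, a different wide run for 25 and another island for 3.

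Another run lay within 500 kb of 150 islands and farther away from 3. The most remote island, at chr6:93351284-93406282, 269 kb from Magi1, lay 1025 and 1620 kb from the runs on either side. Its mESC domains measured 35 kb in DMSO and 45 kb under dTAG, and its 2CLC domains 45 and 20 kb. The island over Gm853 (chr4:130199445-130214444) covered the same 15 kb in all groups, 715 kb from any other run. Those near Tmed10, a cargo receptor of the secretory pathway, and over Hmces, a sensor of abasic DNA sites, were 645 and 500 kb from the next run. The island over the transcriptional repressor gene Dr1 lay 450 kb from another run. The islands near Magi1 and over Dr1 held the LINE-1 word, and that over Hmces held the second word. Those over Gm853 and near Tmed10 held neither word.

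Within 500 kb on each side, the median share covered by domains was below the share of all autosomal bases. The share of bases in a domain of any sorted set had a median of 37.5% around the islands (quartiles 19% and 57.5%). It was 27% around other narrow runs and 57.5% around wide common runs. Of all autosomal bases, 60.8% lay in a domain. That value is a share over bases, whereas the others are medians over runs and leave out the run itself. Set by set, the medians around islands were 22% for mESC DMSO, 15% for mESC dTAG, 14.5% for 2CLC DMSO and 20% for 2CLC dTAG. A narrow run can have no domain at its edge, so low values next to it follow from the definition. In the first 25 kb from the edge each set covered 5.95% to 6.73%, and by 475 to 500 kb the mESC DMSO set had reached 34.1% and the mESC dTAG set 25.2%.

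**Figure D5:**
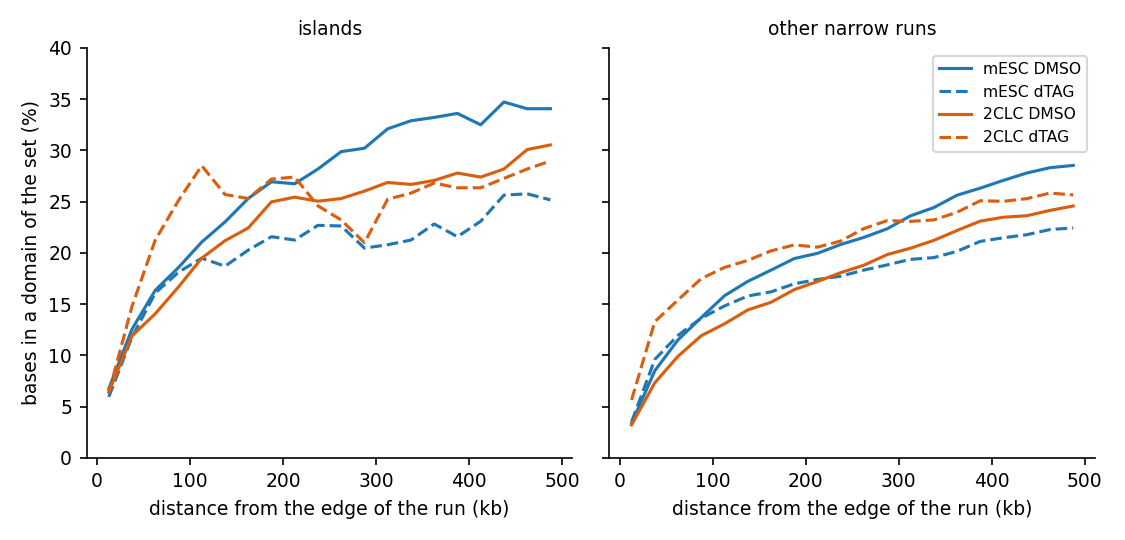
Share of bases in a domain of each sorted set (vertical axis, %) by distance from the edge of the run in kb (horizontal axis, 25 kb bins, both sides pooled), around the 153 islands (left) and the 2472 other narrow runs (right). Solid lines are DMSO, broken lines dTAG, blue mESCs and orange 2CLCs. Around the islands all lines start between 5.95% and 6.73%, and at the far end mESC DMSO is highest (34.1%) and mESC dTAG lowest (25.2%).

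The islands held more repeated sequence than their surroundings. Soft-masked bases, which mark interspersed and simple repeats in the reference, made up 40.7% of an island at the median and 28.4% of its surroundings, against 36.8% and 28.2% for other narrow runs. Repeated 50-base words made up 15.3% of the islands and 4.23% of their surroundings at the median. These medians were 7.65% and 3.71% for other narrow runs, and 8.11% and 5.07% for wide common runs. The largest shares within an island were 46.0% over Phf11a, 42.4% near Ctdp1, 41.5% over Mylk, 37.6% near Orc5 and 36.6% over St3gal4, a sialyltransferase gene whose island also had the longest repeated block, 19780 bases. GC content was 42.4% in the islands and 43.1% around them, beside 43.9% in other narrow runs, 40.7% in wide common runs and 45.2% in 5 kb bins outside any run. The surroundings held a median of 7 protein-coding starts per Mb, and those of other narrow runs 9.

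A domain list that took no part in the choice touched most islands. This list names no cell state or treatment, was called on another grid, and is referred to as the unnamed set. It touched 111 islands (72.5%), beside 50.8% of all narrow runs and 49.4% of the narrow runs that are not islands, and it contained 49 islands (32.0%) entirely, beside 28.9% of other narrow runs and 41.8% of other wide runs. By bases it covered 63.2% of the islands, 47.9% of other narrow runs, 92.4% of wide common runs and 63.3% of the autosomes, so that by bases the islands were close to the autosomal share. Among the 118 islands with the LINE-1 word it touched 86, and among the 35 without it 25. None of the bases of the Olfr318 island was in it. Which cells the unnamed set comes from is not known, so it is not taken as an independent experiment.

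Islands occurred on every autosome. There were 2 on chromosome 8 and 14 each on chromosomes 10 and 11, or 1.55 to 11.5 per 100 Mb.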

How the data were processed

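Domain positions were analysed as deposited, in 5 lists, with the unit of a base position and a score of 0 throughout. According to the study's methods the authors trimmed reads and aligned them to mm10 with STAR 2.7.10, which placed a read with several equal matches at 1 of them. Duplicates (Picard 2.26.0) and high-signal regions were removed, deepTools 3.5.1 scaled the coverage, the mean of 10 kb windows was taken on a 5 kb grid, and each bin was set against its input as a log2 ratio. Domains grew from bins of high ratio until a bin of low ratio. Whether replicates were pooled was not stated. The list that names no group was assigned to none, and the bulk mESC libraries (24 h in DMSO) were not analysed here as a group.

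Runs, overlaps and sequence counts were computed in Python 3.11.15 (numpy 2.4.6, pandas 2.3.3, scipy 1.17.1) on GRCm38.p6, whose coordinates are those of mm10, with GENCODE M21 genes. Run finding, repeated words and intervals were tested on simulated data, and the word search against a direct search. Coordinates are counted from 1. The islands, the comparisons and the gene lists were chosen with earlier results of these data known. Named regions are the 5 widest, those with the 5 widest common parts, the 5 longest distances and the 5 largest repeated shares, and those at the limits of the rule. Named genes are the 15 with a start in the widest common parts and up to 6 members per list (zinc finger, germline and meiosis, imprinted, 2-cell, olfactory, vomeronasal, histone, Hox, ribosomal protein, protocadherin, developmental transcription factor, neurotransmitter receptor, pluripotency, H3K9 methylation machinery). Genes around whole islands, Tcf21 and both shared words were chosen after their values were seen. Regions are not replicates, so no test was run. The X chromosome entered only as an alternative. The sequence of the LINE-1 word and 1 host gene are not reported here.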

Additional observations from a re-analysis of the deposited data

How the results depend on the processing

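The values were recomputed with other limits on width, common bases, gaps, isolation, chromosomes and domain size, and without each set in turn. They were called moved when they left the 95% interval of the main value (Wilson for shares, ranks for medians, with islands as units). Islands are not replicates, so this interval is a yardstick and no measure of replicate error. For the share of island bases in the unnamed set it treated a fraction of bases as a count of islands. For the number of islands (153), a change of over 1.5-fold counted as moved. The number was 75 with a limit of 50 kb, 235 with 100 kb, 59 without another run within 50 kb, 405 without the mESC DMSO set and 414 without the 2CLC DMSO set. The share of islands with a protein-coding start (28.1%) was 18.7% with a limit of 50 kb, 16.9% without a run within 50 kb, 52.9% for starts of all annotated genes and 77.1% for any base of a gene body. Median GC (42.4%) was 42.8% without a run within 50 kb. The share of island bases in the unnamed set (63.2%) was 54.8% with a limit of 50 kb. The share of the surroundings in domains (37.5%) was 23.0% without a run within 50 kb and 25% within 100 kb of each island. The share with the LINE-1 word (77.1%), tried with alternatives chosen after seeing the data, was 62.0% without the mESC DMSO set, 69.7% without the mESC dTAG set, 68.1% without the 2CLC DMSO set, 66.0% for the rarest and 86.9% for any of the 785 words held by at least 100 islands. In other narrow runs these words gave 9.91% and 40.2%. The causes were not tested, other than that the alternatives keep fewer or more runs. The other alternatives run stayed within these limits. No paired analysis was possible because each condition has 1 list and no replicate values. Positions on a 5 kb grid limit every edge to that precision.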
